A study of Mus musculus with 6 samples.

Results

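The mouse Serpina3 genes form a run of closely related serine protease inhibitor genes on chromosome 12, a short distance from Dicer1, the gene deleted in the knockout animals. They were chosen by name: rows of the deposited table called Serpina3c, Serpina3f, Serpina3g, Serpina3i, Serpina3k, Serpina3m or Serpina3n. Of these 7 genes, 5 were measured, out of 31469 rows in all, and Serpina3g and Serpina3m are not analysed here. The choice was made with the genotype difference of Serpina3n and Serpina3i already known, so the genotype differences of the members are given as a description and carry no test.

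RNA was sequenced from parvalbumin-positive sensory neurons of the lumbar 4 dorsal root ganglion of C57BL/6 mice at postnatal day 21. The 2 groups were wild type and a pvalb driven dicer knockout, with 3 libraries each. The knockout rests on a parvalbumin-Cre allele, so Dicer is removed only in cells that have used the Pvalb promoter and only from that time on. The labels do not say whether the wild-type animals carried the Cre or the conditional Dicer allele, how the neurons were collected, or whether each library is a separate animal, so the spread between libraries may in part be technical.

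Serpins are suicide inhibitors: a protease cuts an exposed loop of the serpin, the serpin folds around the cut, and the enzyme is trapped. Humans have a single SERPINA3 gene, which encodes alpha-1-antichymotrypsin, an acute phase protein made by the liver, and in the mouse this gene has been copied many times. Serpina3n inhibits leukocyte elastase and granzyme B, is made in the nervous system as well as in the liver, and is known to rise in injured sensory neurons and reactive astrocytes.

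The targeted gene, Dicer1, stood at 36.7, 26.0 and 48.7 TPM in wild type and 24.0, 20.8 and 21.8 TPM in the knockout. TPM is a transcript's share of a library after correction for its length. The groups did not overlap, with the knockout lower, and the log2 difference of -0.68 did not pass the test (SE 0.22, limma adjusted p = 0.104). Without wild-type replicate 2 it was -0.90 (adjusted p = 0.0412, with 0.0412 to 0.355 over the alternatives). Pvalb itself was at 25.1, 19.7 and 23.1 TPM in wild type and at 4.02, 3.69 and 14.0 TPM in the knockout (limma adjusted p = 0.0452), and when single libraries were left out this call held only without knockout replicate 3 (0.00441 to 0.149 over the alternatives). All 11 tested proprioceptor markers were lower in the knockout with groups that did not overlap, as were 17.1% of all tested rows, and 9 were called. The list, which holds Heg1, Vstm2b, Nxph1 and Wnt7a, was chosen with earlier results of these data known. Its counts are thus a description and not an independent check. The marker sum was 1911 to 2038 TPM in wild type and 873 to 1084 TPM in the knockout. The largest called differences among them were -4.19 for Vstm2b, -2.68 for Nxph1 and -2.59 for Wnt7a, and Etv1 was the most abundant, at 568 ± 50.6 and 310 ± 64.6 TPM (SD, n = 3 each). Single libraries decided the calls of Wnt7a (limma adjusted p = 0.0150, and 0.0622 without knockout replicate 1) and Etv1 (0.0153, and 0.0617 without knockout replicate 2). In bulk samples, fewer cells of a type and less RNA per cell cannot be told apart. Knockout replicate 2 stood apart from the other knockout libraries on some axon injury genes, a pattern picked out after the values were seen. Atf3 was at 31.2 TPM against 6.44 and 6.69, Sprr1a at 47.1 against 0 and 0, and Npy at 52.4 against 0.43 and 0. Not all listed genes followed: Gap43 was at 73.2 TPM against 43.2 and 78.2, and Tubb3 at 1786 against 1768 and 2044. Among the wild-type libraries, replicate 3 was the highest for Atf3 (12.9 TPM), Sprr1a (3.80 TPM) and Npy (7.10 TPM). Without knockout replicate 2 the log2 differences of the members were 1.71 for Serpina3n, 0.77 for Serpina3f, 1.81 for Serpina3i, 1.12 for Serpina3k and -0.43 for Serpina3c, as knockout minus wild type. Replicate 3 of each group had Xist at 0.06 TPM or less and Ddx3y at 32.7 and 33.3 TPM, while Xist was at 22.2 to 69.5 TPM in replicates 1 and 2. Over the whole table, limma called 693 of 13787 tested rows, which is 5.03%; 256 were higher (1.86%) and 437 lower (3.17%) in the knockout, so that 36.9% of calls were higher, against 49.3% after median-of-ratios rescaling.

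The sequences before the start sites show how close the members are to each other and are printed for the 4 measured members with a RefSeq entry (GRCm38.p6), Serpina3n, Serpina3c, Serpina3f and Serpina3i. Each line holds the 250 bases before the transcription start, 5′ to 3′ on the gene's own strand. The capitals mark the longest run that these 4 sequences share, found by a search after their sequences had been seen.
Serpina3n, chr12:104406458-104406707, + strand: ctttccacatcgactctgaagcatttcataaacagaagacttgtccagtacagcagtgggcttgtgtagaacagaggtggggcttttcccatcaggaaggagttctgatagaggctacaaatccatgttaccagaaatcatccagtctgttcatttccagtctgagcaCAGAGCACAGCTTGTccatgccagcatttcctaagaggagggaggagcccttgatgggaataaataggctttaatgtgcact
Serpina3c, chr12:104153873-104154122, - strand: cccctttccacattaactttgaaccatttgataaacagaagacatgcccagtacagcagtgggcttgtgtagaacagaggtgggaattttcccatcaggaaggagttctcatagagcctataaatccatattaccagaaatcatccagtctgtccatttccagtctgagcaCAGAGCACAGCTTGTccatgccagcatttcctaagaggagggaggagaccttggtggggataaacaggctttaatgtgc
Serpina3f, chr12:104214294-104214543, + strand: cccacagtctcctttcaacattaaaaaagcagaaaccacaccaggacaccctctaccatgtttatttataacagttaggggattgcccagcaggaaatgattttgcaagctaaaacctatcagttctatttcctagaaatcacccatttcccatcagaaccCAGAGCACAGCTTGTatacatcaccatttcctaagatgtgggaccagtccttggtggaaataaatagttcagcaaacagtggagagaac
Serpina3i, chr12:104262872-104263121, + strand: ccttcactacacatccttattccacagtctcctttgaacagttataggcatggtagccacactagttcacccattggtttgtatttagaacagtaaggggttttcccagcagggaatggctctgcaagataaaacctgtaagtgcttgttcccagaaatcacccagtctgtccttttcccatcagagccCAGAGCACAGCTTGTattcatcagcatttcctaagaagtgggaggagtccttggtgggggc
The shared run is 15 bases long. It lies 82 bases before the start in Serpina3n, 79 in Serpina3c, 89 in Serpina3f and 61 in Serpina3i, counted from its first base. Of 32851 RefSeq promoter windows, 5 hold it on either strand (0.0152%), and all 5 belong to these genes, Serpina3f having 2 entries. Serpina3n and Serpina3c were identical at 90.5% of aligned positions over the 250 bases. The other pairs among the 4 were between 58.1% and 63.6% identical.

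Known motifs were searched on both strands of the full 300-base windows, which run to 50 bases after the start. The STAT motif TTCNNNGAA, present in 8.3% of all windows, occurred once in Serpina3f and once in Serpina3i and was not matched in Serpina3n or Serpina3c. The shorter glucocorticoid receptor motif AGAACA, present in 19.0% of all windows, occurred in each of the 4; the full receptor motif, an inverted pair of that shorter motif, was matched in none of them and in 0.009% of all windows. The C/EBP motif TTNCNNAA was matched in each of the 4 and in 40.7% of all windows. The NF-kB motif was matched 2 times in Serpina3n, once each in Serpina3f and Serpina3i, and not in Serpina3c (20.7% of all windows). TATAAA was matched in Serpina3c and Serpina3f (13.6% of all windows).

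The coding sequences of Serpina3n and Serpina3c were less alike than their upstream sequences. For the other pairs among the 4 genes with a RefSeq entry the order was reversed. Their coding identity was 75.7% to 83.7% and their upstream identity 58.1% to 63.6%. Among the coding sequences of the 5 measured members in GENCODE, identity ranged from 72.1% between Serpina3f and Serpina3k to 85.0% between Serpina3c and Serpina3k, and it was 84.8% between Serpina3n and Serpina3c. The share of 50-base runs of a gene's transcripts that also occur in a transcript of another gene was 4.3% for Serpina3c, 6.9% for Serpina3n, 10.6% for Serpina3f, 14.0% for Serpina3k and 15.9% for Serpina3i. Most runs of that length were thus found in 1 gene alone. The closest partner of Serpina3k was Serpina3m, with 12.8% of its runs and 91.0% coding identity.

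Serpina3n was the most abundant member in every library. It lies at 104406729 to 104414329 on the plus strand of chromosome 12 (GRCm38, ENSMUSG00000021091.8), and its end is 273.4 kb from the nearer end of Dicer1. Wild-type libraries held 57.8, 92.0 and 74.6 TPM, and knockout libraries held 249, 202 and 237 TPM. The groups did not overlap, and the lowest knockout value was more than double the highest wild-type value. Means of 74.8 ± 17.1 and 229 ± 24.2 TPM (SD, n = 3 each) give a ratio of 3.07. On the log2(TPM + 1) scale, on which all log2 differences here are given as knockout minus wild type, the difference was 1.62 (SE 0.17). Of the 13787 tested rows, 61 (0.442%), Serpina3n among them, had a difference of that size or more.

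Serpina3f was the next most abundant member and had the smallest difference among those that were higher in the knockout. It lies at 104214544 to 104221129 on chromosome 12, on the plus strand (ENSMUSG00000066363.12). It was at 38.6, 33.5 and 39.7 TPM in wild type and at 68.3, 68.3 and 59.7 TPM in the knockout. The libraries of each group lay close together and the groups did not overlap. Mean levels were 37.3 ± 3.33 and 65.4 ± 4.96 TPM (SD, n = 3 in each group), with a ratio of 1.76 and a log2 difference of 0.80 (SE 0.13).

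Serpina3i and Serpina3k were low in wild type and higher in all knockout libraries. Serpina3i (104263122 to 104269372, plus strand, ENSMUSG00000079014.4) was at 1.58, 1.41 and 0.35 TPM in wild type and at 4.79, 5.45 and 7.77 TPM in the knockout. Its mean levels were 1.11 ± 0.67 and 6.00 ± 1.57 TPM (SD, n = 3 in each group), with a ratio of 5.39 and a log2 difference of 1.76 (SE 0.36). Replicate 3 was the lowest of the wild-type libraries and the highest of the knockout libraries, and without replicate 3 of both groups the difference was 1.29.

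Serpina3k (104338486 to 104346144, plus strand, ENSMUSG00000058207.6), which is best known as a liver and plasma serpin, was at 1.06, 3.56 and 2.29 TPM in wild type and at 7.61, 8.52 and 4.42 TPM in the knockout. The highest wild-type and the lowest knockout library lay less than 1 TPM apart. Mean levels were 2.30 ± 1.25 and 6.85 ± 2.15 TPM (SD, n = 3 in each group), with a ratio of 2.97 and a log2 difference of 1.28 (SE 0.37).

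Serpina3c went the other way. It lies on the minus strand at 104146382 to 104153870, at the end of the group farthest from Dicer1 (ENSMUSG00000066361.3), and is the member whose upstream sequence is closest to that of Serpina3n among the 4 with a RefSeq entry. It was at 9.87, 9.31 and 8.20 TPM in wild type and at 6.60, 2.09 and 6.37 TPM in the knockout. The groups did not overlap, and knockout replicate 2 was far below the other knockout libraries. Mean levels were 9.13 ± 0.85 and 5.02 ± 2.54 TPM (SD, n = 3 in each group), with a ratio of 0.55 and a log2 difference of -0.86 (SE 0.35). Without knockout replicate 2 the difference was -0.43.

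**Figure D1:**
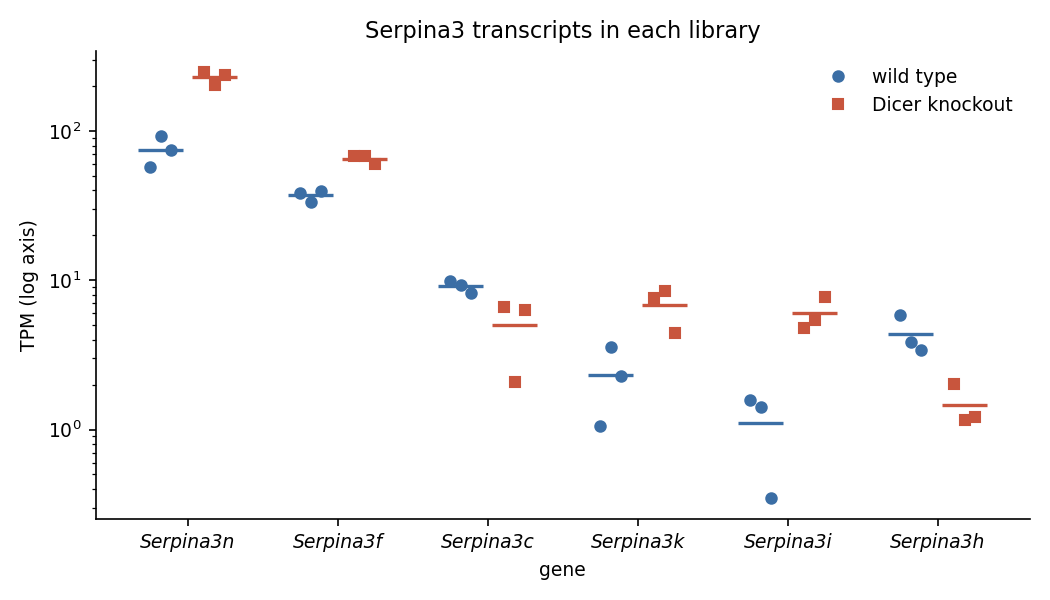
TPM on a log axis for the 5 measured members and the pseudogene Serpina3h, with circles for the 3 wild-type libraries, squares for the 3 Dicer knockout libraries, and lines at the group means. Serpina3n, Serpina3f, Serpina3k and Serpina3i sit higher in every knockout library, while Serpina3c and Serpina3h sit lower.

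In all, 4 of the 5 measured members were higher in the knockout with groups that did not overlap, and 1 was lower with groups that did not overlap. Over all tested rows, 11.8% were higher and 17.1% lower without overlap. The median log2 difference was 1.28 over the 5 members and -0.05 over all tested rows. These shares stand as background only, because the members were chosen with this contrast known.

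The order of the levels differed between the groups. By mean TPM, wild-type libraries ran from Serpina3n through Serpina3f, Serpina3c and Serpina3k to Serpina3i, and the last 2 overlapped in range. In the knockout, Serpina3n and Serpina3f kept their places, while Serpina3k, Serpina3i and Serpina3c overlapped in range and could not be ordered beyond their spread. The ratio of Serpina3n to Serpina3c was 5.86, 9.88 and 9.10 in wild type and 37.7, 96.8 and 37.3 in the knockout.

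The members summed to 109, 140 and 125 TPM in wild type and to 336, 287 and 316 TPM in the knockout, a ratio of means of 2.51. The sum leaves out Serpina3m and Serpina3h, with which Serpina3k and Serpina3i share 12.8% and 9.8% of their 50-base runs. Serpina3n made up 53.1% to 65.8% of the sum in wild type and 70.6% to 75.2% in the knockout. Without Serpina3n the other 4 members summed to 47.7 to 51.1 TPM and 78.3 to 87.3 TPM, a ratio of means of 1.67. Serpina3n was thus the larger part of the total and not the whole of the difference.

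Among the other rows of the same gene run, Serpina3h stood out. GENCODE lists it as a transcribed pseudogene, at 104247905 to 104253669 between Serpina3f and Serpina3i. It was at 5.87, 3.87 and 3.43 TPM in wild type and at 2.02, 1.16 and 1.22 TPM in the knockout, with no overlap between the groups. The log2 difference of -1.12 did not pass the test (SE 0.32, limma adjusted p = 0.0792). Of its 50-base runs 21.9% also occur in other Serpina3 transcripts, most of them in Serpina3i, which holds 15.8%. Serpina3h and Serpina3i together, a pair chosen after their values were seen, were at 7.45, 5.28 and 3.78 TPM in wild type and at 6.81, 6.61 and 8.99 TPM in the knockout, so that the groups overlapped for the sum although they did not for either gene alone. Whether reads were assigned differently between Serpina3h and Serpina3i in the 2 groups was not tested. Serpina3a was at 1.31 TPM or less, Serpina3j at 0.39 TPM or less and Serpina3b at 0.37 TPM or less in every library, all below the level for testing.

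Within a group the members did not follow one common order of libraries. Over the 6 libraries, Pearson's r with Serpina3n on the log2 scale was 0.904 for Serpina3f, 0.895 for Serpina3k, 0.891 for Serpina3i, -0.619 for Serpina3c and -0.922 for Serpina3h. After each group's mean was subtracted, it was -0.595 for Serpina3f, 0.605 for Serpina3k, -0.104 for Serpina3i, 0.358 for Serpina3c and -0.356 for Serpina3h. These are descriptions over 6 points that share the genotype split and the scaling of each library. Knockout replicate 2 had the lowest Serpina3n and Serpina3c of its group and the highest Serpina3k.

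The rows most like Serpina3n over the 6 libraries, among symbols with a mean of at least 5 TPM, were Timp2 (r = 0.990), Ncoa7, Slc1a5 and Abca6 (0.989 each) and Hs3st4 (0.988). Timp2, an inhibitor of matrix metalloproteinases, was at 621, 727 and 652 TPM in wild type and at 1158, 1115 and 1076 TPM in the knockout. Slc1a5, a glutamine transporter, was at 10.1 ± 2.01 and 24.7 ± 4.25 TPM, and Hs3st4, a heparan sulfate sulfotransferase, at 11.5 ± 1.18 and 23.2 ± 1.43 TPM (SD, n = 3 each). After the group means were subtracted, the most alike rows were Ubr4 (0.998), Arrdc4 and Ppig (0.994 each), none of them in the first set. Both sets are the highest values picked from many rows over 6 points, so r near these values can come from the picking alone. Whether these genes are regulated together was not tested.

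The position next to Dicer1 was then compared with the genes around it. The 5 members span 267.9 kb, and their starts lie 345.2 kb (Serpina3n) to 598.1 kb (Serpina3c) from the start of Dicer1. Of 7 other tested genes that start within 1 Mb of Dicer1, 1 was called (14.3%, against 5.03% of all tested rows), and 2 had groups that did not overlap (28.6%, against 28.9% of all tested rows). The pseudogene Serpina3h, which lies within the Serpina3 run itself, is among the 7 and is 1 of those 2. The called gene was Glrx5, a mitochondrial glutaredoxin of iron-sulfur cluster assembly 280.7 kb on the other side of Dicer1, which fell from 152 ± 29.9 to 96.9 ± 1.43 TPM (SD, n = 3 each; log2 difference -0.62, SE 0.15, limma adjusted p = 0.0455). Its call was lost when any 1 library other than wild-type replicate 1 was left out (adjusted p between 0.0278 and 0.167 over the alternatives). The median difference of the 7 genes was -0.09.

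Neither tested gene flanking Dicer1 and the Serpina3 run passed the test. Clmn, the next tested gene beyond Dicer1, was at 0.84 ± 0.50 and 1.18 ± 0.29 TPM (limma adjusted p = 0.714). Ppp4r4, a phosphatase regulatory subunit and the next tested gene on the far side of the Serpina3 run, was at 23.4 ± 2.98 and 31.0 ± 6.81 TPM (log2 difference 0.37, SE 0.20, limma adjusted p = 0.287). Of 57 rows between 1 and 5 Mb away, 1 was called higher (1.75%), and 19.3% had groups that did not overlap. It was 1 of 2 rows of Eml1, a microtubule-associated protein gene, with a difference of 1.55 (limma adjusted p = 0.00782). The other Eml1 row had a difference of 0.37 and was not called (limma adjusted p = 0.293). Farther along chromosome 12, 6.48% of 108 rows at 5 to 20 Mb and 3.97% of 302 rows beyond were called, and 5.14% of 12260 rows on other chromosomes.

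**Figure D2:**
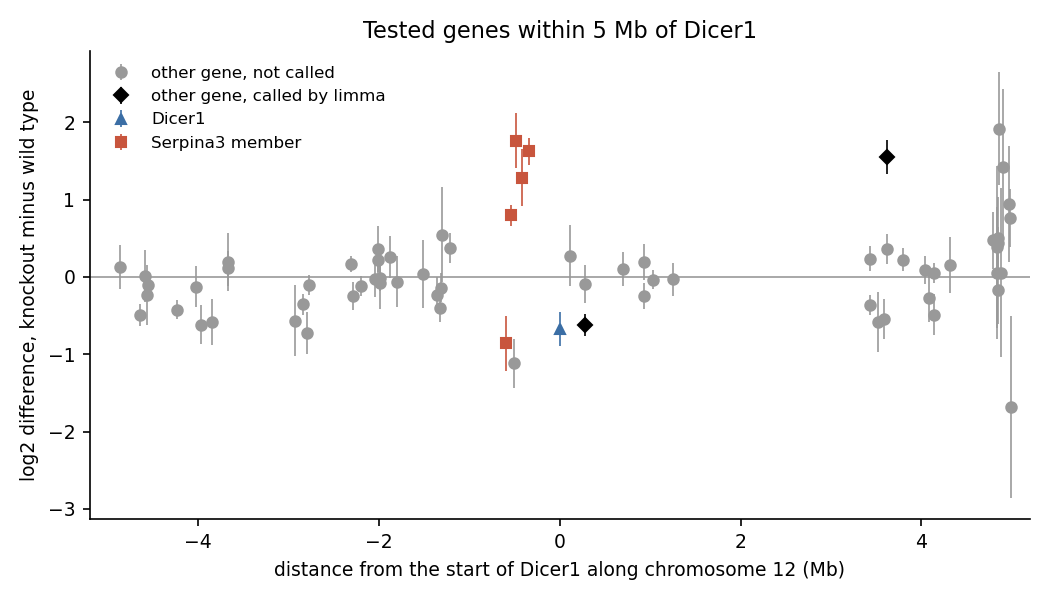
Log2 difference (knockout minus wild type) with its standard error against the distance in Mb from the start of Dicer1 for tested rows within 5 Mb, with squares for the Serpina3 members, a triangle for Dicer1, diamonds for other rows called by limma and circles for the rest. The members lie between -0.86 and 1.76 within 0.6 Mb of Dicer1, and Glrx5 and 1 row of Eml1 are the 2 other rows called.

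Serpins of other families were examined next, from a list of 38 genes of which 12 were tested. Serping1, the C1 inhibitor that restrains the complement and contact systems, rose from 23.1 ± 0.77 to 66.5 ± 10.7 TPM (SD, n = 3 each; log2 difference 1.47, SE 0.15, limma adjusted p = 0.00224) and stayed called whichever library was left out. Serpinb1a, an intracellular inhibitor of neutrophil proteases, rose from 118 ± 19.3 to 240.5 ± 35.3 TPM (log2 difference 1.02, limma adjusted p = 0.0112); without knockout replicate 1 its adjusted p was 0.0546, in a range of 0.00868 to 0.0618 over the alternatives. Serpini1, which encodes neuroserpin, the inhibitor of tissue plasminogen activator in neurons, fell from 370 ± 57.4 to 213 ± 40.4 TPM (log2 difference -0.80, limma adjusted p = 0.0309). The call of Serpini1 was lost without wild-type replicates 2 or 3 or knockout replicates 1 or 2 (adjusted p between 0.0236 and 0.11 over the alternatives). The other 9 did not pass, and the median of the 12 was -0.11. Of the 12, limma thus called 2 higher and 1 lower, against 1.86% higher and 3.17% lower over all tested rows.

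The nearby Serpina1 family, the alpha-1-antitrypsin genes of the liver, gave almost no signal. Serpina1b, Serpina1c, Serpina1e and Serpina1f were listed at 0 in every library.

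**Figure D3:**
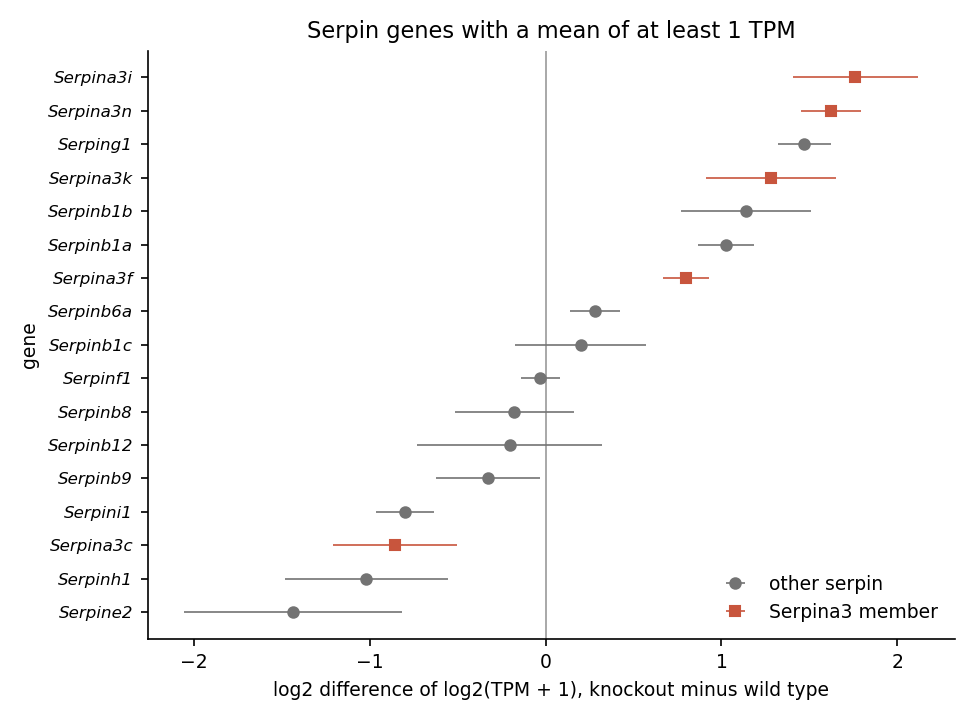
Log2 difference of log2(TPM + 1), knockout minus wild type, with its standard error, for the 5 Serpina3 members (squares) and 12 other serpins with a mean of at least 1 TPM (circles). Serpina3i, Serpina3n and Serping1 are the 3 highest, at 1.76, 1.62 and 1.47, and Serpina3c lies among the lower genes at -0.86.

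Serine proteases that Serpina3 proteins or close relatives can inhibit were mostly not seen. Of 22 listed serine proteases, 12 were listed at 0 in every library, among them Elane (leukocyte elastase), Ctsg (cathepsin G), Gzmb (granzyme B) and Cma1 (mast cell chymase). Of the 5 tested, limma called 0, and at an unadjusted p below 0.05 there were 1 higher and 2 lower. Htra1, the most abundant, was at 153 ± 25.4 and 118 ± 3.64 TPM (SD, n = 3 each; limma adjusted p = 0.147).

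Pathways known to raise Serpina3 genes were read from lists of their own genes. Of 14 tested genes of cytokine receptors and the STAT3 pathway, limma called 0 (at an unadjusted p below 0.05, 3 higher and 3 lower), with a median difference of 0.09, and Il6 and Osm were listed at 0. Jak1, the kinase most abundant in that list, was at 485 ± 36.6 and 379 ± 23.3 TPM (limma adjusted p = 0.0856). Of 8 tested acute phase and response genes, C4b, a complement component, rose from 1.27 ± 0.19 to 5.23 ± 1.81 TPM (log2 difference 1.41, limma adjusted p = 0.0451), and Il1r1, the interleukin-1 receptor, fell from 11.5 ± 1.45 to 5.11 ± 0.60 TPM (-1.03, limma adjusted p = 0.0313). The call of C4b held without knockout replicate 3 and was lost without any other single library (adjusted p 0.0367 to 0.171 over the alternatives), and that of Il1r1 held only without wild-type replicate 1 (0.0313 to 0.134). The liver acute phase genes Saa1, Saa2, Hp, Orm1 and Fgb were listed at 0 in every library.

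Glucocorticoid response genes showed a call in each direction among 16 tested, with a median of 0.05. Cdkn1a, which encodes p21 and halts the cell cycle, rose from 7.55 ± 1.97 to 23.2 ± 5.16 TPM (limma adjusted p = 0.0117), and Sult1a1, a sulfotransferase, fell by 2.06 (limma adjusted p = 0.0153). Without knockout replicate 1 the adjusted p was 0.0577 for Cdkn1a and 0.0551 for Sult1a1, and without wild-type replicate 3 it was 0.0599 for Sult1a1; the ranges over the alternatives were 0.00871 to 0.0723 and 0.00959 to 0.0599. Among 10 tested genes of reactive glia, Hspb1, a small heat shock protein, rose by 1.31 (limma adjusted p = 0.00197) beside C4b. The other 8 did not pass, and the median was 0.06. At an unadjusted p below 0.05 there were 4 higher and 0 lower. In 4 of the 10 the groups did not overlap, against 28.9% of all tested rows. The list summed to 1973 to 2241 TPM in wild type and 3048 to 4050 TPM in the knockout, most of it S100a10 (limma adjusted p = 0.0538) and Hspb1. Gfap, the defining astrocyte filament gene, was listed at 0. Of 15 tested axon injury genes, 1 was called, Adcyap1, which encodes the neuropeptide PACAP and fell from 48.4 ± 6.25 to 20.4 ± 2.26 TPM (limma adjusted p = 0.00483), and the median was 0.30.

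Markers of neurons and of other cells in the ganglion moved with genotype in part. Among 12 pan-neuronal markers, Rbfox3, which encodes the nuclear protein NeuN, rose from 94.9 ± 8.10 to 131 ± 4.45 TPM (limma adjusted p = 0.0496), a call that was lost whichever library was left out (0.0338 to 0.153 over the alternatives). The median difference of the 12 was -0.04. The summed pan-neuronal level was 57004 to 69808 TPM in wild type and 52681 to 54801 TPM in the knockout, without overlap. That sum is mostly Nefl, Nefm and Snap25. Nefl, the most abundant of them, was at 22532 ± 4777 and 21860 ± 360 TPM. Nefm was at 15118 ± 3166 and 10678 ± 1058 TPM (limma adjusted p = 0.132). Snap25 was at 12862 ± 1481 and 11049 ± 398 TPM (limma adjusted p = 0.377). Of 12 satellite glia markers, Fabp7 fell by 1.75 (limma adjusted p = 0.0412) and Gja1 by 1.53 (limma adjusted p = 0.0408), while Dbi, the one with the highest mean, was at 641 ± 194 and 768 ± 144 TPM. The median difference of the 12 was -0.70, and at an unadjusted p below 0.05 there were 4 lower and 1 higher. Their summed level was 1294 to 2460 TPM in wild type and 1217 to 1756 TPM in the knockout. The calls of Fabp7 and Gja1 were each lost without some single library. For Fabp7 these were wild-type replicates 1 or 3 and knockout replicates 1 or 2 (limma adjusted p 0.00671 to 0.13 over the alternatives). For Gja1 it was any of the 6 (limma adjusted p 0.0266 to 0.179).

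The 4 tested Schwann cell markers did not move together. Pmp22 rose from 480 ± 39.4 to 1223 ± 178 TPM (log2 difference 1.34, limma adjusted p = 0.00212). Mbp, the myelin basic protein gene, was at 14.1 ± 3.58 and 6.77 ± 1.13 TPM (log2 difference -0.94, limma adjusted p = 0.0568, with 0.0489 to 0.226 over the alternatives), without overlap. Mal had a difference of -0.90 (limma adjusted p = 0.263), and the median of the 4 was -0.35. The summed level of the 8 listed, 451 to 542 TPM in wild type and 1042 to 1394 TPM in the knockout, is nearly all Pmp22.

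Blood and other markers were lower in level. Of the erythroid markers, Hba-a2, a haemoglobin alpha gene, was at 3.60, 8.79 and 19.1 TPM in wild type and at 39.9, 12.3 and 54.5 TPM in the knockout, with groups that overlapped (log2 difference 1.69, limma adjusted p = 0.135), and Hbb-b1 was at 0. The erythroid sum was 3.99 to 20.2 TPM and 12.5 to 54.8 TPM. Macrophage markers summed to 6.02 to 8.96 TPM and 3.99 to 6.27 TPM, most of it Lyz2 (limma adjusted p = 0.150), with C1qa and Cd163 at 0. Neutrophil and mast cell markers summed to 8.82 TPM or less, with Kit the highest on average (limma adjusted p = 0.277) and with Elane, Cma1 and S100a9 at 0. No endothelial, fibroblast or hepatocyte marker was called: the most abundant were Egfl7 at 15.2 ± 2.88 and 18.8 ± 3.39 TPM, Dcn at 25.4 ± 9.16 and 23.7 ± 7.05 TPM, and Trf at 8.60 ± 7.80 and 3.71 ± 1.69 TPM. Of the hepatocyte markers, 6 of 8, among them Alb, Ttr and Apoa1, were at 0. The part of these cell types, of the lower proprioceptor markers and of knockout replicate 2 in the Serpina3 values was not tested beyond the values above.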

How the data were processed

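Total RNA from 6 libraries was, per the labels' protocols, extracted with the PicoPure kit and amplified with an Ovation kit before adapter ligation. Reads were processed with cutadapt, Bowtie2 and RSEM 1.2.7 on mm10, per the submitters' processing notes, which name no annotation. TPM values were deposited by the authors in 1 table with a column per library. TPM keeps no sequencing depth, so no counting interval was computed; 13237 to 13960 rows reached 1 TPM in a library. RSEM shares reads among similar transcripts by a model.

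The values were taken as log2(TPM + 1) and fitted with limma 3.58.1 (R 4.3.3) with an intensity trend and genotype as the only term, on the 13787 rows averaging at least 1 TPM. Tests were two-sided, adjusted by Benjamini and Hochberg over all of them, with a threshold of 0.05. With 3 libraries a group, the smallest exact two-sided permutation p is 0.1. The fit was tested on simulated data. Each member has 1 row. Positions came from GENCODE M21 (98.8% of tested symbols matched), starts being 5′ ends. Coding sequences and 250-base upstream sequences were aligned globally with Biopython 1.88 (match 1, mismatch -1, gap opening -5, gap extension -0.5), and identity counts gaps. Promoter sequences came from RefSeq. Coding identity was used in place of the planned protein identity, and the search for 50-base runs and for the shared upstream run was added after the data were seen.

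The members, lists and tests were chosen with earlier results of these data known. Named genes were the members and other Serpina3 rows, Dicer1 and its tested neighbours, called genes within 1 Mb, up to 3 called genes per list or else the most abundant, up to 3 called genes and the most abundant per marker list, and the rows most like Serpina3n. Genes named beside these, such as those listed at 0, Eml1, Pvalb and Mbp, were chosen after their values were seen. Alternatives were pseudocounts of 0.1 and 0.5, other filters, 2 rescalings, no trend, a replicate block and leaving out libraries.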

Additional observations from a re-analysis of the deposited data

How the results depend on the processing

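Other filters, the fit without a trend, the balanced replicate block and the sum of rows return a member's difference as it was by construction, and leaving out libraries cannot turn a difference between groups that do not overlap. Under the 2 rescalings all 5 members kept their direction. Serpina3i and Serpina3k fall below the filter at a mean of 5 TPM. Serpina3n ranged from 1.45 to 1.78 and the sum of the members from 1.24 to 1.42 on the log2 scale. Serpina3i was 2.52 with a pseudocount of 0.1. When single libraries were left out, Dicer1 ranged from -0.90 to -0.46, rows higher from 48 to 348, and rows lower from 116 to 487. Called neighbours of Dicer1 within 1 Mb ranged from 0 to 1. The 7 context lists held 78 distinct tested genes with all libraries. Their called genes ranged from 2 to 7 higher (5 with all libraries) and from 1 to 6 lower (4 with all libraries). With all libraries, 1.86% of all tested rows were called higher and 3.17% lower. The lowest counts of called rows, 48 higher and 116 lower, came without knockout replicate 1. Without replicate 3 of both groups the counts were 65 higher and 139 lower, with 0 neighbours, 3 context genes higher and 1 lower. With no filter they were 130 and 248, with 0 neighbours and 2 context genes lower, and with no intensity trend 57 and 168, with 0 neighbours and 3 context genes higher. Quantile normalization gave 389 higher. The called neighbour count was also 0 with a pseudocount of 0.1, with median-of-ratios rescaling and with the replicate block. The cause of these shifts was not tested.

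Replicate numbers are shared by the groups. Deviations of same-numbered libraries correlated at 0.049, 0.066 and 0.038, and those of differently numbered libraries at -0.098 to 0.07. The numbers were therefore not taken as pairs, although replicate 3 of each group was alike in Xist (0.06 TPM or less) and Ddx3y (32.7 and 33.3 TPM). With the replicate block, 188 rows were higher and 341 lower (Serpina3n 1.62, which the block cannot move). Depth is unknown, and values near 1 TPM, such as Serpina3i in wild type, are the least certain.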
